A study of Homo sapiens with 4 samples.

Results

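The genes described here are 7 interferon-induced genes, PARP9, DTX3L, PARP10, PARP12, PARP14, SAMD9 and SAMD9L, measured by RNA-seq in the human natural killer cell line NK-92 after knockdown of the RNA-editing enzyme ADAR1. They were chosen by name, as interferon-induced members of the PARP family, the partner of PARP9, and the SAMD9 pair. The genes and the gene lists used below were chosen with earlier results of these data known. The 7 genes were found by their Ensembl identifiers among the 20323 genes of the table. All 7 were among the 11810 genes with enough counts to be tested. NK-92 is an established line that grows in medium with interleukin 2. In NK scramble cells a lentivirus delivered a scrambled hairpin, and in NK shADAR1 cells it delivered a hairpin against ADAR1, with 2 libraries of poly(A)-selected RNA in each group. All 4 libraries were therefore transduced, and no untransduced cells and no cells treated with interferon were included in the comparison. Below, NK scramble cells are called control and NK shADAR1 cells knockdown, and pairs of values are given in the order replicate 1, replicate 2. The labels number the knockdown libraries 1 and 2, and these numbers were read as replicates, as the series describes. The study also numbers its 2 ADAR1 hairpins and names the second for this experiment, and the labels do not resolve the overlap in names. In RNA from bulk cultures, fewer cells that express a gene and less RNA per cell cannot be told apart.

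PARP proteins use NAD+ to attach ADP-ribose to other proteins. Several interferon-induced members of the family attach single units rather than chains, and several restrict viruses. PARP9 works as a complex with DTX3L, a ubiquitin ligase of the deltex family. PARP14 and PARP9 carry macrodomains, which bind ADP-ribose. PARP12 carries zinc fingers that bind RNA, and PARP10 is a mono-ADP-ribosyltransferase with RNA recognition motifs. SAMD9 and SAMD9L are large cytoplasmic proteins that arose by duplication, that block poxvirus replication and protein synthesis, and that are mutated in inherited bone marrow failure. Type I interferon induces such genes through ISGF3, a complex of transcription factors that binds the interferon-stimulated response element (ISRE) in their promoters.

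The genes lie in few places in the genome (GRCh38, GENCODE release 29). PARP9 (ENSG00000138496) spans chr3:122527924-122564577 on the minus strand. DTX3L (ENSG00000163840) spans chr3:122564238-122575203 on the plus strand, so the pair starts head to head. Their annotated exons share 217 bases on opposite strands. PARP14 (ENSG00000173193) follows on the plus strand at chr3:122680618-122730840, separated from DTX3L by 105414 bases and 1 protein-coding gene. SAMD9 (ENSG00000205413) at chr7:93099513-93118023 and SAMD9L (ENSG00000177409) at chr7:93130055-93148369 are neighbours on the minus strand with 12031 bases between them. PARP12 (ENSG00000059378) lies far from them on the minus strand, at chr7:140023744-140063721.

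Promoter windows from RefSeq (GRCh38.p14, from 250 bases before to 50 bases after a start site) were available for 6 of the 7 genes, all but PARP10. They were searched on both strands for an ISRE core, GAAANNGAAA (TTTCNNTTTC on the other strand). The core was present for 5 of these 6 genes, against 4.38% of the 27305 genes with a window and 3.57% of the 35116 windows. It was found for 23 of the 33 other interferon-stimulated genes with a window and for 0 of the 11 other PARP family genes with one. PARP9 and DTX3L share 1 copy of the core, which starts 6 bases before the start site of DTX3L and 41 bases before 1 of the 2 start sites of PARP9. The stretches around the cores are shown because these 5 genes carry the same short motif at different distances from the start site. Capitals mark the core, and each stretch is written on the strand of its gene.

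PARP9 and DTX3L, chr3:122564322-122564351, strand of DTX3L: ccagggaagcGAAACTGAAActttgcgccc
PARP14, chr3:122680800-122680829, plus strand: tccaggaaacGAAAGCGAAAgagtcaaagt
PARP12, chr7:140062942-140062971, minus strand: ccggggccgcTTTCGGTTTCgtttcccgcc
SAMD9, chr7:93118066-93118175, minus strand: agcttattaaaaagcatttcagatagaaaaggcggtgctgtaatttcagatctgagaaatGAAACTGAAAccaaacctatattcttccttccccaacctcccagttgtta

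The core of SAMD9 starts 136 bases before its start site, that of PARP14 29 bases before and that of PARP12 10 bases before. The PARP14 window was also the only 1 of these windows with a GAS motif, TTCNNNGAA, which binds STAT dimers. That motif was found in 7.66% of windows and lies 40 bases before the start site of PARP14. The SAMD9L window does not hold the ISRE core as searched. It holds AAACTGAAAC, 10 letters that it shares with SAMD9 and with the PARP9 and DTX3L stretch, 47 bases before the start site. These letters, picked after the sequences were read, occur in 55 of the 35116 windows (0.16%). They are in capitals in the following stretch.

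SAMD9L, chr7:93148386-93148492, minus strand: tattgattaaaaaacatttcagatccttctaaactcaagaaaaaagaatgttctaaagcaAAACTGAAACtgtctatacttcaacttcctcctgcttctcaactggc

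The 4 libraries held 37881704 to 39960491 estimated counts, so counting error is small for genes at these levels. Their log2 CPM values (counts scaled by TMM to a common library size and expressed as CPM) correlated across genes at r = 0.981 to 0.989. The closest were libraries of the same number in different groups, at r = 0.985 for number 1 and 0.989 for number 2. The 2 libraries of a group were at r = 0.981 in each, and libraries of different number and group at 0.982 and 0.981. ADAR itself was at 655 and 682 CPM in control and 575 and 482 CPM in knockdown libraries, which did not overlap. Its log2 fold change of -0.34 (standard error 0.20) did not pass the test (edgeR, adjusted p = 1.00). NK cell markers were present, with 15 of 16 at an FPKM of at least 1 in some library, among them NCAM1, NKG7, GNLY and PRF1. Their summed FPKM was 5285 to 6325 over the 4 libraries. Of 19 genes listed as markers of other cell types, 3 reached that level, TRAC, ITGAM and CD79A. ITGAM encodes CD11b, by which the study stages mouse NK cells, so it is not exclusive to other cell types. The 19 genes summed to 111 and 130 FPKM in control and 141 and 148 FPKM in knockdown libraries, nearly all of it TRAC. CD3D and CD3G reached at most 0.958 and 0.034 FPKM, and CD8A, CD8B, MS4A1, HBB and PPBP were at 0 in every library. Of the 7 with enough counts, all had log2 fold changes above 0 (median 0.86), against 5905 of 11810 tested genes. In 5 both knockdown libraries were above both controls, against 1572 of 11810. None had an unadjusted p under 0.05. Most were low, with at most 24 counts in any library for CD3D, 19 for PECAM1, 92 for CD79A, 86 for CSF1R and 78 for FCGR3B. Of the 16 NK cell markers, 13 also had log2 fold changes above 0, with a median of 0.11. In 4 of the 16 both knockdown libraries were above both controls. KLRK1 alone of the 16 had an unadjusted p under 0.05 (edgeR), higher, as did 201 of 11810 tested genes. Whether other cells have a part in the values below was not tested.

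Compared per length, as FPKM, the 7 genes were moderately expressed in NK scramble cells. PARP9 and PARP12 were highest at 39.9 ± 10.3 and 38.7 ± 4.24 FPKM (mean ± SD, n = 2), followed by DTX3L at 30.4 ± 7.79. SAMD9, PARP14 and SAMD9L came next at 17.7 ± 7.51, 16.9 ± 1.29 and 16.6 ± 5.70 FPKM, and PARP10 was lowest at 10.7 ± 2.83. Neighbours in this order overlapped between libraries except DTX3L and SAMD9, which stood apart. The 7 genes ranked between the 59.2 and 83.9 percentile of genes with a value above 0. In NK shADAR1 cells only PARP12 and PARP9 exchanged places, at mean levels of 26.5 and 26.2 FPKM.

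With edgeR's quasi-likelihood test, none of the 7 genes was differentially expressed between NK shADAR1 and NK scramble cells, taken as an adjusted p under 0.05 and a difference of 1.5-fold or more in either direction. This was also true of all 11810 tested genes (0% called), with an adjusted p of 1.00 for each of the 7. DESeq2 called 0 genes as well. At an unadjusted p under 0.05, 293 genes passed in edgeR and 289 in DESeq2. The log2 fold changes of all 7 genes were below 0 under each scaling of the counts, and in the FPKM values that of PARP10 was above 0. With TMM scaling, 50% of tested genes were below 0. The median over the 7 was -0.26, and the median over all tested genes was 0. At an unadjusted p under 0.05, 2 of the 7 genes were lower in NK shADAR1 cells (DTX3L and PARP12), against 0.779% of tested genes. In the same 2 genes both knockdown libraries lay below both control libraries, as in 12.6% of tested genes. The first count was 3 with DESeq2, which added PARP9, against 97 of 15605 genes. It was also 3, with the same genes, in edgeR on all genes with at least 1 count in any library, against 140 of 15605. It changed when NK shADAR1 replicate 1, NK shADAR1 replicate 2 or NK scramble replicate 2 was left out. Without NK shADAR1 replicate 2 it was 0, where 221 of 12165 tested genes were lower by the same rule. Without NK scramble replicate 2 it was 1, against 235 of 12165 genes, and without NK shADAR1 replicate 1 it was 6, against 145 of 12040 genes. An exact two-sided permutation test of 2 against 2 libraries reaches 0.333 at the lowest and was not used. The labels name no separate batches. The p-values rest on 2 libraries per group, read as replicates, with a spread estimated partly from all tested genes. The main fit has no term for the replicate number.

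**Figure D1:**
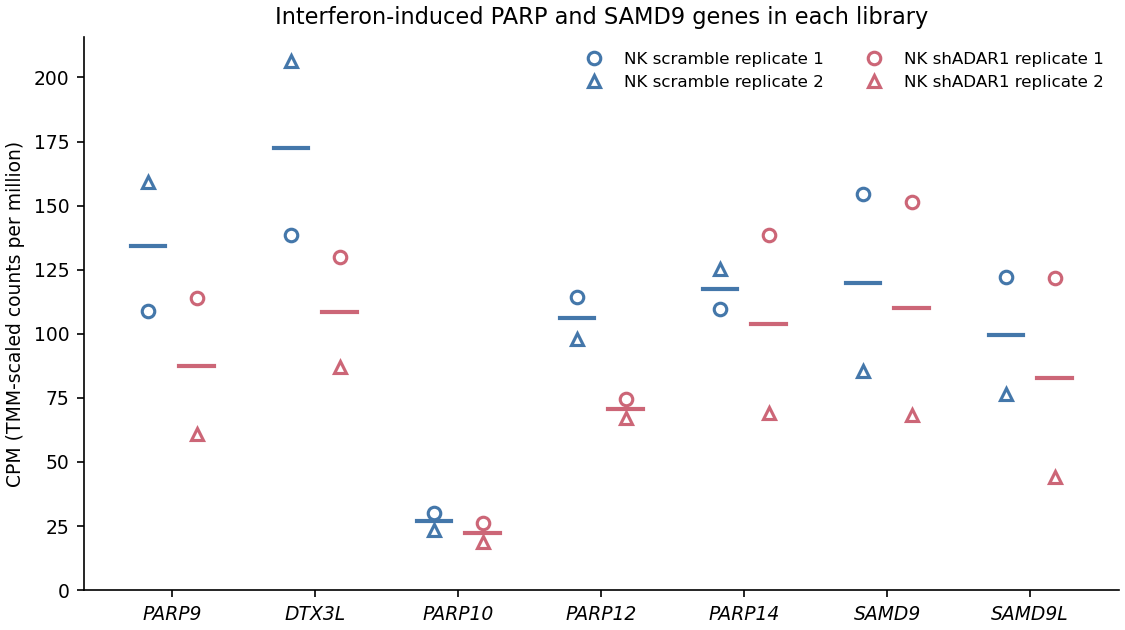
CPM of each gene in each library, with blue for NK scramble, red for NK shADAR1, circles for replicate 1, triangles for replicate 2 and bars for the mean of 2 libraries. Only DTX3L and PARP12 have both red points below both blue points, and NK shADAR1 replicate 2 is the lowest library for every gene.

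DTX3L and PARP9, which start head to head and whose products form a complex, had the closest profiles of any 2 of the 7 genes. DTX3L was at 139 and 206.5 CPM in control against 130 and 87.2 CPM in knockdown libraries. The knockdown libraries were lower, although NK shADAR1 replicate 1 lay near NK scramble replicate 1. Its log2 fold change was -0.67 with a standard error of 0.26 (95% interval -1.24 to -0.091, unadjusted p = 0.0273). Without NK scramble replicate 2 it was -0.36, and without NK shADAR1 replicate 2 it was -0.41. For PARP9, values were 109 and 159 CPM in control against 114 and 61.0 CPM in knockdown libraries. Here the groups overlapped, since NK shADAR1 replicate 1 was above NK scramble replicate 1. The log2 fold change was -0.62 with a standard error of 0.30 (95% interval -1.28 to 0.049), and it was -0.24 without NK shADAR1 replicate 2 and -0.32 without NK scramble replicate 2. The distance between the 2 profiles, each taken as 4 log2 CPM values less the gene's NK scramble mean, was 0.23 and ranged up to 1.29 over the 21 pairs of the 7 genes. The ratio of DTX3L to PARP9 in FPKM was 0.762 and 0.761 in control against 0.693 and 0.871 in knockdown libraries. The library kit does not mark strand as far as the sources describe it, so reads from the 217 shared exon bases could not be told apart.

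PARP12 had the smallest standard error of the 7 genes. This gene, whose product is recruited to stress granules and the Golgi, was at 114.5 and 98.0 CPM in control against 74.7 and 67.0 CPM in knockdown libraries. The groups did not overlap. Its log2 fold change of -0.59 had a standard error of 0.20 (95% interval -1.03 to -0.14, unadjusted p = 0.0148) and ranged only from -0.70 to -0.47 when 1 library was left out. The fitted knockdown level was 0.667 of the control level.

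PARP14, a coactivator of STAT6 with the longest transcript of the 7 genes, did not separate the groups. Its level was 110 and 125 CPM in control against 138 and 69.1 CPM in knockdown libraries. The knockdown libraries were thus the highest and the lowest of the 4. The log2 fold change was -0.18 with a standard error of 0.29 (95% interval -0.83 to 0.47), and it turned to 0.23 without NK shADAR1 replicate 2.

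SAMD9 and SAMD9L varied within each group more than between the groups. SAMD9 was at 155 and 85.4 CPM in control against 151 and 68.5 CPM in knockdown libraries. In both groups the library numbered 1 was the higher, by 1.81 times in NK scramble and by 2.21 times in NK shADAR1. For SAMD9L, the values were 122 and 76.7 CPM in control against 122 and 44.2 CPM in knockdown libraries, with ratios of 1.59 and 2.75 between the libraries numbered 1 and 2. PARP9 and DTX3L ran the other way in NK scramble, where replicate 1 was 0.683 and 0.671 of replicate 2. The log2 fold changes of SAMD9 and SAMD9L were -0.13 (95% interval -0.94 to 0.68) and -0.26 (95% interval -1.14 to 0.62). They turned to 0.36 and 0.11 without NK scramble replicate 1, and to 0.33 and 0.29 without NK shADAR1 replicate 2. The intervals include both a decrease of about the size seen in DTX3L and an increase.

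The SAMD9 pair also had the second closest profiles of the 21 pairs, at a distance of 0.41. Their coding sequences, of 4767 and 4752 bases, were identical at 71.8% of aligned bases (GENCODE release 29), with 32 bases as the longest identical run. Read on the strand of each gene, annotated transcripts of SAMD9 and SAMD9L shared no stretch of 50 bases, nor did those of any other pair of the 7 genes. The exon bases that PARP9 and DTX3L share on opposite strands are not covered by that comparison. In FPKM, SAMD9 was 1.11 and 0.983 times SAMD9L in control against 1.12 and 1.33 times in knockdown libraries.

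**Figure D2:**
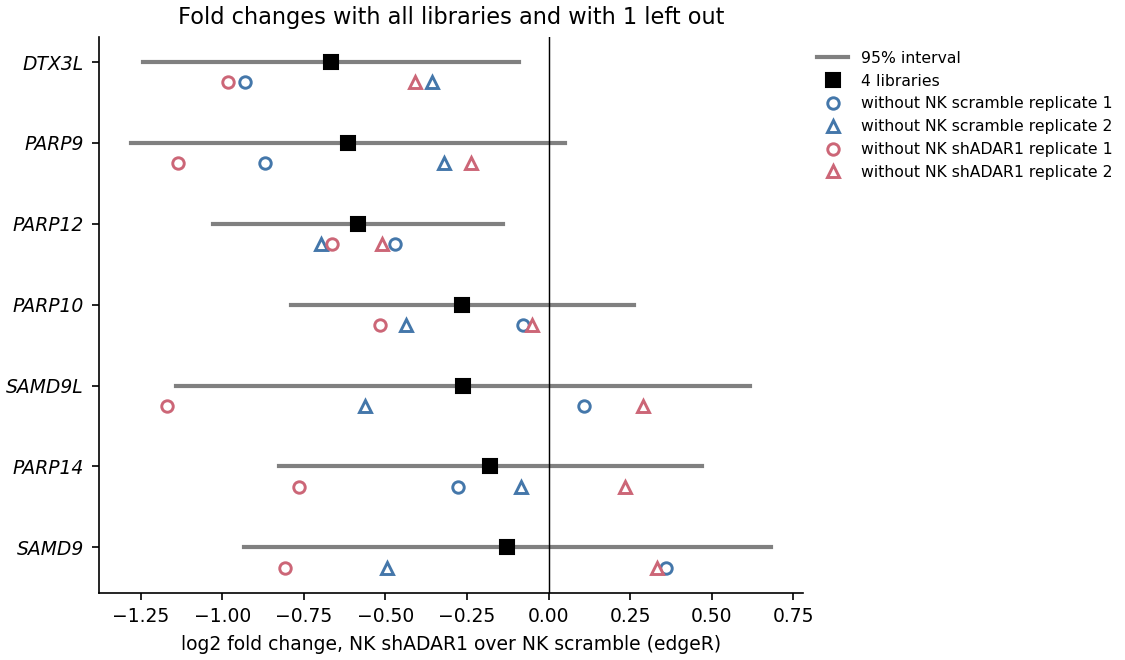
Log2 fold change of NK shADAR1 over NK scramble for each gene from edgeR, with all 4 libraries (black squares, grey bars for the 95% interval) and with 1 library left out (open symbols). The symbols stay left of 0 for DTX3L, PARP9, PARP12 and PARP10 and cross it for PARP14, SAMD9 and SAMD9L.

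PARP10, an antiviral mono-ADP-ribosyltransferase on chromosome 8 (GRCh38, minus strand, 143977153 to 144012772), was the lowest of the 7 and depended on the unit. In CPM it was 30.2 and 23.6 in control against 26.1 and 18.8 in knockdown libraries, which overlapped, and its log2 fold change was -0.26 (95% interval -0.79 to 0.26). In FPKM it was 8.72 and 12.7 in control against 8.91 and 13.4 in knockdown libraries, and a limma fit on log2(FPKM + 0.1) gave a log2 fold change of 0.050. The order of the libraries numbered 1 and 2 is thus opposite on the 2 scales in each group. The transcript length that joins a count to its FPKM was 3.50 and 1.83 kb in control against 3.04 and 1.36 kb in knockdown libraries, taking the library's total estimated count as its depth. The highest of these was 2.57 times the lowest, more than in 99.2% of tested genes, where the median was 1.06. For the other 6 genes the ratio was 1.00 to 1.12. GENCODE release 29 lists 15 protein-coding PARP10 transcripts of 481 to 3497 bases, and the table does not separate transcripts. PARP10 also shares 324 exon bases with GRINA and 197 with SPATC1, both on the opposite strand.

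**Figure D3:**
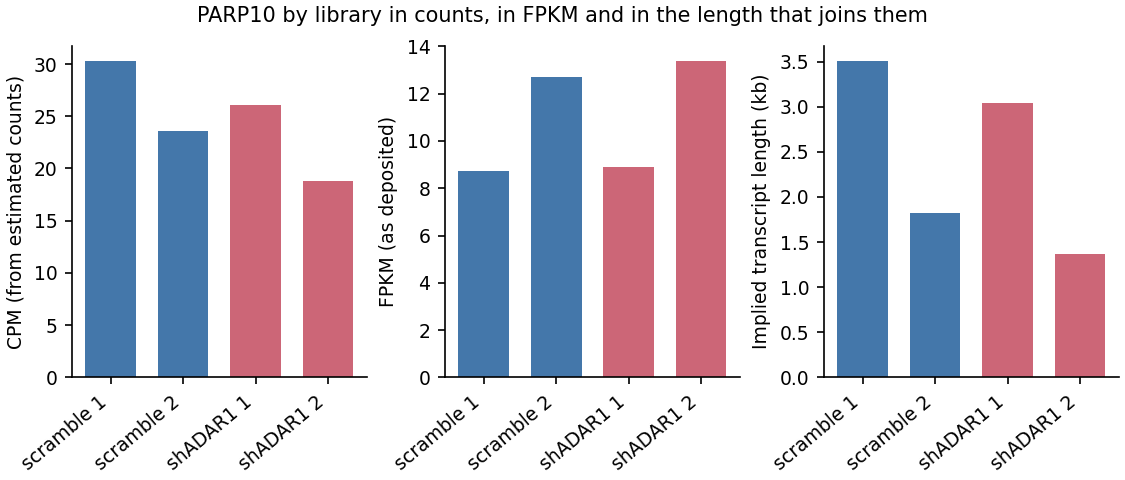
PARP10 in each library as CPM, as deposited FPKM and as the transcript length in kb that joins them, with blue for NK scramble and red for NK shADAR1. Replicate 1 is the higher library of each group in CPM and in length and the lower in FPKM.

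In NK shADAR1 replicate 2 the 7 genes stood between 0.52 (PARP10) and 1.17 (SAMD9L) log2 units below the NK scramble mean. In replicate 1 the values ran from 0.51 below (PARP12) to 0.34 above (SAMD9), and 4 of the 7 were below the mean. The unequal knockdown libraries were seen across other interferon-stimulated genes too. A list of 40 such genes summed to 2594 and 2502 FPKM in NK scramble, 2007 in NK shADAR1 replicate 1 and 1380 in replicate 2. The 7 genes summed to 167.5 and 174 FPKM in NK scramble, 163 in NK shADAR1 replicate 1 and 95.2 in replicate 2. ADAR was also lowest in that library. What part ADAR or the library as a whole has in the lower values was not tested.

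**Figure D4:**
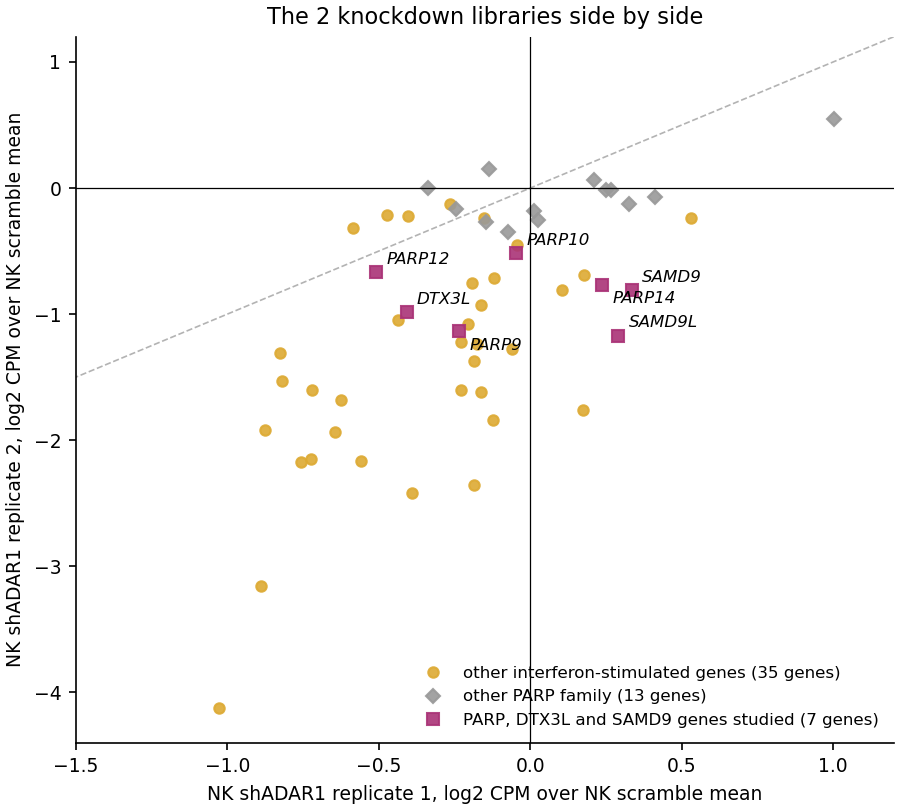
Log2 ratio of each knockdown library to the NK scramble mean, replicate 1 on the x axis and replicate 2 on the y axis, for genes whose counts averaged 100 or more (the dashed line marks equal values). All 7 genes lie below the line, as do most other interferon-stimulated genes and most other PARP family genes. On the y axis the other PARP family genes lie between -0.35 (ZC3HAV1) and 0.15 (PARP1) except PARP15, at 1.00 and 0.55.

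Some of the factors that carry the interferon signal were measured as well. IRF9, the DNA-binding part of ISGF3, and IRF7, which amplifies interferon production, had log2 fold changes of -0.80 and -1.34. The groups did not overlap for IRF9 and overlapped for IRF7. Without NK shADAR1 replicate 2 the values were -0.23 and -0.55, and without NK shADAR1 replicate 1 they were -1.75 and -3.26. Without NK scramble replicate 1, IRF7 was at -0.77. That of STAT2, which is also part of ISGF3, was -0.19, with overlapping groups. The receptor chains IFNAR1 and IFNAR2 were at -0.12 and 0.11, and the kinases JAK1 and TYK2 at 0.068 and 0.012. Over this list, 9 of 13 tested genes were below 0, none was called, and the median was -0.12.

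Of the other interferon-stimulated genes, a list written with earlier results of these data known, 38 of 40 were tested. Of the 38, 36 were below 0, against 50% of tested genes, with a median log2 fold change of -0.68. An unadjusted p under 0.05 was reached by 13, all lower, against 0.779% of tested genes. In 26 both knockdown libraries were below both controls, against 12.6% of tested genes. None was called after adjustment. The lowest were MX2, IFI44L, MX1 and IFI27, antiviral or interferon-induced genes at -2.0, -1.87, -1.62 and -1.31, and the highest were IFI16, a DNA sensor, at 0.20 and IFITM3 at 0.068. Without NK shADAR1 replicate 2 the 4 lowest were at -1.07, -1.03, -0.89 and -0.88, and without NK shADAR1 replicate 1 at -5.67, -4.12, -3.16 and -1.92. IFI16 and IFITM3 turned to -0.24 and -1.30 without NK shADAR1 replicate 1, and IFI16 to -0.021 without NK scramble replicate 2. MX2 and IFITM3 were low, with at most 120 and 31 counts in any library. The log2 fold changes of the 7 genes, from -0.67 to -0.13, lay within the range of this list.

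The rest of the PARP family was spread around 0. All 13 were tested, with 6 below and 7 above 0, a median log2 fold change of 0.014 and none at an unadjusted p under 0.05. PARP1, the DNA repair enzyme and the highest of the family in FPKM, was at 562 and 621 CPM in control against 538.5 and 656 CPM in knockdown libraries. ZC3HAV1, which encodes the antiviral protein ZAP and is also induced by interferon, was at -0.20, with 143 and 218 CPM in control against 172 and 142 CPM in knockdown libraries. That value lay within the range of the 7 genes, -0.67 to -0.13. So did those of PARP11, TIPARP and PARP16, at -0.21, -0.20 and -0.16. For TIPARP both knockdown libraries were below both controls, as in 12.6% of tested genes. PARP15, a neighbour of PARP14, was the furthest from 0 at 0.79 (standard error 0.36). Its values were low, at 2.43 and 3.97 CPM in control against 6.41 and 4.69 CPM in knockdown libraries. Both of its knockdown libraries were higher.

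Enzymes that remove ADP-ribose were likewise spread around 0. Of 8 listed, 6 were tested, 3 below and 3 above 0, with a median of -0.011. PARG, which degrades ADP-ribose chains, had a log2 fold change of 0.17, and MACROD1 and OARD1, which remove single units, had -0.28 and 0.052. The other deltex genes tested, DTX2 and DTX3, had -0.12 and 0.11. Of the genomic neighbours, 9 of 12 were tested, 4 below and 5 above 0. HSPBAP1 and KPNA1, which flank the PARP9, DTX3L and PARP14 cluster, had log2 fold changes of 0.0091 and -0.0060, and VPS50 and CDK6, near SAMD9, had 0.19 and -0.18. SLC37A3 and GRINA had -0.27 and -0.22, TBXAS1 and PLEC had 0.15 and 0.53, and PARP15 had 0.79. PLEC was at -0.34 without NK shADAR1 replicate 1. In SLC37A3 and CDK6 both knockdown libraries were below both controls, against 12.6% of tested genes. None of the genes in these lists had an unadjusted p under 0.05.

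**Figure D5:**
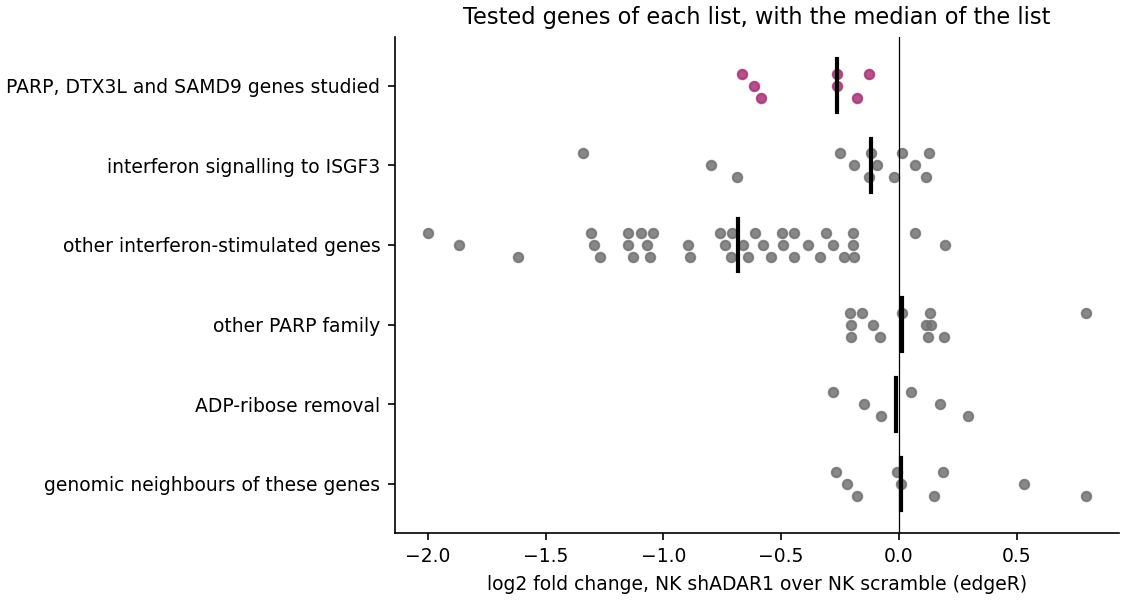
Log2 fold change of each tested gene by list (points), with the list median (black bar). All 7 genes at the top lie below 0, the other interferon-stimulated genes have the lowest median at -0.68, and the other PARP family, the ADP-ribose removal and the neighbour lists have medians between -0.011 and 0.014.

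Of 9869 genes outside the 7 whose counts averaged 100 or more, those with the smallest distance to the median profile of the 7 were KLHDC7B, CHKB-CPT1B, OASL, IL18R1 and DYRK1B, at distances of 0.16 to 0.20 over 4 libraries. Relative to the control mean, each was between -0.20 and 0.13 log2 units in NK shADAR1 replicate 1 and 0.60 to 0.81 log2 units below it in replicate 2. The median profile of the 7 itself was 0.11 and -0.11 in control against -0.037 and -0.76 in knockdown libraries. Of the 35 eligible interferon-stimulated genes of the list, 3 were among the nearest 50 of the 9869 genes.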

How the data were processed

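RNA-seq of NK-92 cells was analysed in 4 libraries (oligo(dT) selection, NEBNext Ultra kit). The deposited table gives, for each gene and library, estimated counts that are not scaled for depth. It also gives FPKM, which the authors scaled by transcript length and mapped fragments. The submitters' processing notes name fastp 0.18.0, and the aligner, counter and genome build are not given in the sources used here. Of 20323 genes, 20301 matched a symbol.

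Estimated counts were rounded and tested across all genes in R 4.3.3 with edgeR 4.0.16 (filterByExpr with a minimum count of 10, TMM, quasi-likelihood test, no covariates) and Benjamini-Hochberg adjustment. Standard errors are the log2 fold change over the square root of F, and intervals use the fitted degrees of freedom. FPKM was used for levels between genes and, with limma 3.58.1 (pseudocount 0.1, mean of at least 0.5), as an alternative. Other alternatives used DESeq2 1.42.0, scaling by upper quartile or by RLE, 2 count filters, a replicate block and leaving out each library. Scripts were tested on simulated counts. Depth limits little at 37881704 counts or more per library, and 2 libraries per group set the precision. The members and gene lists were chosen with earlier results of these data known. Genes named were all 7 members, ADAR, tested genes of the small lists, the 4 lowest and 2 highest other interferon-stimulated genes and the 5 nearest profiles. No proteins were analysed here. The result of 1 gene of the interferon signalling list is not reported here.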

Additional observations from a re-analysis of the deposited data

How the results depend on the processing

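Of 77 values, 7 genes under 11 alternatives each, 71 kept their direction and 0 had an adjusted p under 0.05. The 6 that turned were PARP10 in FPKM (0.050), PARP14 (0.23), SAMD9 (0.33) and SAMD9L (0.29) without NK shADAR1 replicate 2, and SAMD9 (0.36) and SAMD9L (0.11) without NK scramble replicate 1. The cause was not tested. When 1 library was left out, log2 fold changes ranged from -1.14 to -0.24 for PARP9, -0.98 to -0.36 for DTX3L, -0.52 to -0.050 for PARP10, -0.70 to -0.47 for PARP12, -0.76 to 0.23 for PARP14, -0.81 to 0.36 for SAMD9, -1.17 to 0.29 for SAMD9L and -0.47 to -0.22 for ADAR. The median of the 7 genes ranged from -0.81 to -0.050, the count of members lower at an unadjusted p under 0.05 from 0 to 6, and the count of differentially expressed genes over all genes from 1 to 47, where the lone library of a group is assumed to vary like the others. Unadjusted p-values gave 213 such genes with a fold change of at least 1.5.

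With the replicate number as a block, 13 of all genes were called, against 0 without it. No member was among them. At an unadjusted p under 0.05, 3 members and 235 of 11810 genes were lower with the block, against 2 members and 92 genes without it. The lowest adjusted p of a member was 0.335 (PARP12). The labels do not say that a number marks a shared batch. Over 11810 genes the difference between replicates 1 and 2 correlated at r = 0.31 between the groups, in 2 pairs. The ADAR alternatives were added after the data were seen. Depth did not limit these genes.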
